A study of Mus musculus with 22 samples.

Results

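The Wnt ligands, their Frizzled receptors and the secreted modulators of the Sfrp, Dkk and Rspo families were followed in the distal colon of C57BL/6, Winnie and Winnie-Prolapse mice. Genes were chosen by symbol, as a Wnt, Fzd, Sfrp, Dkk or Rspo name followed by its number and, for Wnt genes, an optional a or b. The rule found 42 of the 46078 rows of the count table, covering 41 symbols: 19 Wnt, 10 Fzd, 4 Sfrp, 4 Dkk and 4 Rspo genes. The symbol Fzd6 stood on 2 rows, and the second of these held 0 counts in all 22 libraries.

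RNA from whole distal colon was sequenced in 8 C57BL/6 mice aged 14 weeks (4 males, 4 females), 7 Winnie mice aged 14 weeks (3 males, 4 females) and 7 Winnie-Prolapse mice aged 18 weeks (4 males, 3 females). Winnie mice carry an inherited missense mutation of Muc2, which encodes the main gut mucin, have colitis without any treatment, and came from the colony that also gave the C57BL/6 mice. Winnie-Prolapse mice, described only in the labels, are Winnie mice with a prolapse. No mouse received a drug or other treatment, and the labels call the Winnie tissue inflamed and the Winnie-Prolapse tissue severely inflamed. All Winnie-Prolapse mice were 4 weeks older than the others, so age and prolapse cannot be told apart. Library totals ran from 24.8 to 36.3 M counts, and the limit set by 3 counts came to 0.0825 to 0.121 CPM (counts per M of the library total), which covers counting error only.

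Wnt proteins are lipid-modified, short-range signals that bind a Frizzled receptor together with a co-receptor. In the beta-catenin branch the co-receptors are Lrp5 and Lrp6, and the outcome is that beta-catenin enters the nucleus and works with TCF/LEF factors, while other branches act on cell polarity and calcium. In the colon, stromal cells below the crypt base are a known source of Wnt ligands and of R-spondins, and the crypt stem cells need both. R-spondins keep Frizzled receptors on the cell surface by withdrawing the ligases Rnf43 and Znrf3 that remove them, Sfrp proteins bind Wnt ligands outside the cell, and Dkk1, Dkk2 and Dkk4 block the Lrp co-receptors.

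Promoter sequence is shown for the receptor, the decoy and the ligand that were called in Winnie-Prolapse colon and had a window in the RefSeq table of assembly GRCm38.p6. Each window runs from 250 bases before to 50 bases after the transcript start, 5′ to 3′ on the gene's own strand. Capitals mark matches to the letters searched for NF-kB, which are GGG and CC with any 5 bases between them, on either strand. The windows are chr5:4758167-4758466 on the minus strand for Fzd1, chr19:42202203-42202502 on the minus strand for Sfrp5 and chr19:44493222-44493521 on the plus strand for Wnt8b. RefSeq places the Fzd1 start upstream of the GENCODE start given below, so the Fzd1 window lies wholly outside the GENCODE gene.
Fzd1: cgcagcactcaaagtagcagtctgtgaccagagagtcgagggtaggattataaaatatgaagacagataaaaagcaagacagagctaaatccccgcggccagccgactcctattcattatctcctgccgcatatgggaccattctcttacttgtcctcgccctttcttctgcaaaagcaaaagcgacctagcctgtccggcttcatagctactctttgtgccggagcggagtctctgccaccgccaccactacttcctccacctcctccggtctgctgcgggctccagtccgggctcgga
Sfrp5: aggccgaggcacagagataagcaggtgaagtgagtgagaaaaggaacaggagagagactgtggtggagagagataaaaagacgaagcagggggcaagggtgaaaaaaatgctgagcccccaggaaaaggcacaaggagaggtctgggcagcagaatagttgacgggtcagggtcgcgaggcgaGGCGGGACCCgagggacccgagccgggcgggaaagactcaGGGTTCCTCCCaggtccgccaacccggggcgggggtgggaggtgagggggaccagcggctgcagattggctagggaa
Wnt8b: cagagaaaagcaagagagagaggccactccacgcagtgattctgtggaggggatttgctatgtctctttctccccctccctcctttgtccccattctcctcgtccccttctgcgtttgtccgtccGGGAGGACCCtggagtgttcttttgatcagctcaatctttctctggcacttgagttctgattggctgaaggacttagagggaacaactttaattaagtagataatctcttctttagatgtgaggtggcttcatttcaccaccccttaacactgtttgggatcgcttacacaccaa

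The Fzd1 window, 54% G and C, held no match to any of the 3 motifs searched. Sfrp5 held 3 NF-kB matches, starting 67, 27 and 26 bases before the transcript start, of which the last 2 overlap on opposite strands. In the Wnt8b window, which is 48.3% G and C, the 10 letters at 125 bases before the start match on both strands. Over the 30 windows found for 27 of the 41 symbols, the NF-kB letters were present in 24 (80%), against 50.8% of all 32851 windows in the table. The TCF/LEF letters CTTTGAT were present in 2 of the 30 (6.67%), those of Wnt11 and Wnt5b, against 3.73%, and the STAT letters TTCNNNGAA in 1 (3.33%), that of Wnt5b, against 8.3%. The windows of these genes were also richer in G and C, with a median of 69.8% against 52.7%, and held a median of 28 CG pairs against 7. Wnt5a, Fzd2, Fzd8 and Rspo2 had no entry.

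By the GENCODE M21 annotation of GRCm38, Fzd1 lies at chr5:4753839-4758035 on the minus strand, Fzd2 at chr11:102604396-102608058 on the plus strand, and both are read from a single exon, as are 6 of the 10 Fzd genes. Wnt8b lies at chr19:44493472-44514273, Wnt5a at chr14:28504750-28527448, Wnt4 at chr4:137277489-137299726 and Sfrp4 at chr13:19623104-19632994, all on the plus strand. Sfrp5 at chr19:42197971-42202252 and Rspo2 at chr15:43020794-43170826 are on the minus strand. Exons of Wnt5a overlap those of Gm2670 on the opposite strand over 358 bases, and the strand setting of the counting was not given, so reads of the pair may be mixed. Fzd5, Fzd6, Rspo3, Sfrp2, Wnt7b and Wnt11 also overlap a gene on the opposite strand. Of the Wnt genes, 4 pairs are neighbours: Wnt6 and Wnt10a on chromosome 1 (6.19 kb apart), Wnt3a and Wnt9a (16.2 kb) and Wnt9b and Wnt3 (24.3 kb) on chromosome 11, and Wnt10b and Wnt1 on chromosome 15 (11.7 kb).

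Several Winnie-Prolapse libraries held transcripts of squamous epithelium, skeletal muscle or milk protein genes, and whether these came from other tissue or from altered colon was not tested. The summed level of 11 squamous epithelium genes (keratins Krt5 and Krt14, Trp63, Ivl and others) was 2377, 1708, 295.6, 492.8 and 3502 CPM in Winnie-Prolapse replicates 2, 4, 5, 6 and 7. It was 7.43 and 5.96 CPM in replicates 1 and 3, from 8.17 to 12.0 CPM in C57BL/6 and from 5.35 to 58.1 CPM in Winnie. Skeletal muscle genes summed to 2945, 1021 and 359.8 CPM in Winnie-Prolapse replicates 2, 4 and 5, against at most 137.5 CPM in any C57BL/6 or Winnie library. Milk protein genes summed to 189300 CPM in Winnie-Prolapse replicate 6, which is 18.9% of its counts and lowers every other CPM of that library, and to 58.9 CPM in replicate 5, against at most 5.72 CPM in any C57BL/6 or Winnie library.

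Colon epithelium was present in each of the 22 libraries, with 10 of its markers summing to 8701 to 16000 CPM, and none of the 10 was called in a comparison. By the wider rule defined below, the surface marker Krt20 was higher in Winnie (log2 fold change 1.07, adjusted p = 0.0322 by edgeR) and in Winnie-Prolapse (0.87, 0.0397) against C57BL/6. Smooth muscle markers summed to 7145 to 13030 CPM in C57BL/6, 2114 to 8005 CPM in Winnie and 1456 to 3418 CPM in Winnie-Prolapse, and those of enteric neurons and glia to 78.2 to 202.5, 21.1 to 92.4 and 33.4 to 59.6 CPM. Fibroblast genes ran from 995.9 to 1360, 644.9 to 1816 and 776.1 to 2382 CPM, subepithelial mesenchyme genes from 125.7 to 187.7, 121.5 to 257.5 and 171.9 to 458.4 CPM, and leukocyte genes from 68.1 to 335, 166.1 to 361.3 and 266 to 1397 CPM. C57BL/6 replicate 7 had the highest smooth muscle, neuronal, adipocyte, epithelial, fibroblast, mesenchyme and skeletal muscle sums of its group and the lowest leukocyte and endothelium sums. In whole tissue, fewer cells of a type and less RNA per cell cannot be told apart.

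Levels were compared between genes as CPM per kb of merged exon. In C57BL/6 colon Fzd5, a receptor of the intestinal epithelium, stood highest with a median of 20.9 CPM per kb (17.8 to 25.8), above the highest library of any other gene of the set. Dkk3, a divergent Dkk protein, followed with a median of 11.3, then Fzd1 with 8.07, Sfrp1 with 6.40 and Fzd7 with 5.46, and from Dkk3 on neighbours in this order overlapped, except that Dkk2 lay above Wnt11. Among the ligands Wnt8b had the highest median, 2.58 CPM per kb, with Wnt5a at 1.32 and Wnt4 at 0.893, and the 3 overlapped between libraries. Rspo3 had the highest median of the R-spondins (2.75 CPM per kb).

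The order differed in the other groups. Fzd5 kept the highest median in Winnie (19.6 CPM per kb, 16.9 to 20.8) and in Winnie-Prolapse (16.4, 10.6 to 17.7), but in Winnie-Prolapse the Fzd1 libraries (median 16.2, 12.3 to 18.9) overlapped it. Wnt4 and Wnt5a had the highest Wnt medians in Winnie, about 1.65 CPM per kb each. In Winnie-Prolapse Wnt5a led the ligands with 2.23 CPM per kb (1.98 to 4.99), while the median of Wnt8b was 0.480 in Winnie and 0.153 in Winnie-Prolapse.

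**Figure D1:**
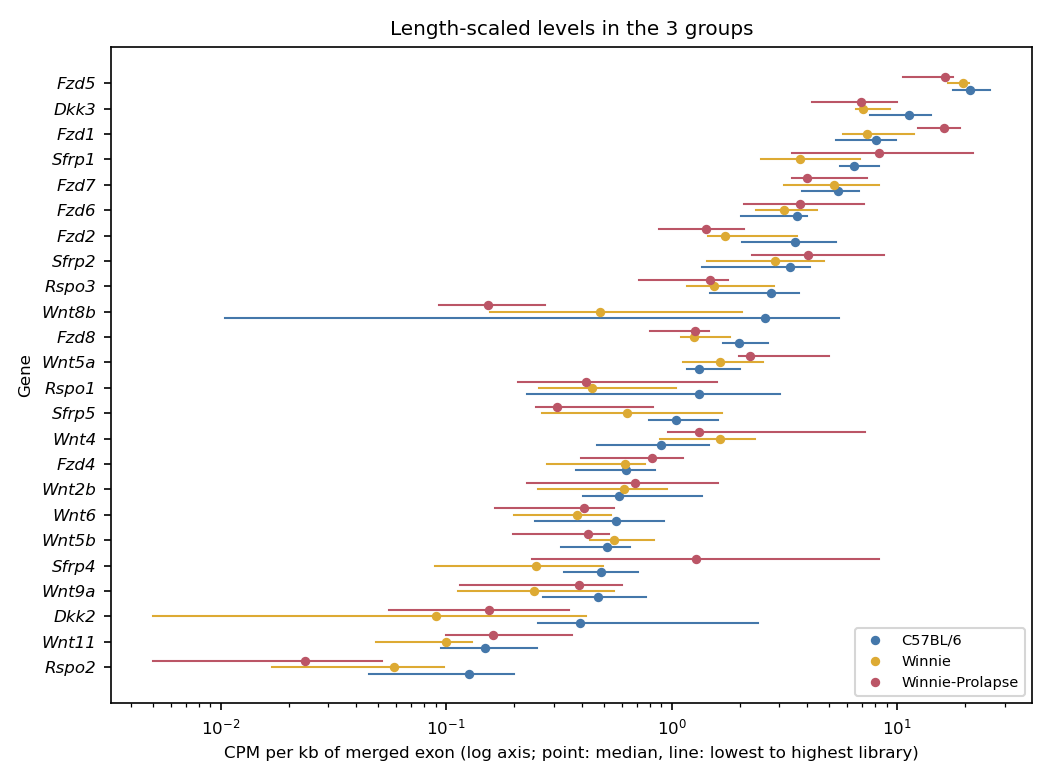
Level of 24 Wnt, Fzd, Sfrp, Dkk and Rspo genes in CPM per kb of merged exon (log axis), as the median of each group with a line from its lowest to its highest library, for genes with a C57BL/6 median above 0.1 CPM per kb and with values under 0.005 drawn at 0.005. Fzd5 stands highest in C57BL/6 and Winnie, and Fzd1 reaches it in Winnie-Prolapse.

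Of the 42 rows, 25 had enough counts to be tested in Winnie and in Winnie-Prolapse against C57BL/6: 8 Wnt, 8 Fzd, 4 Sfrp, 2 Dkk and 3 Rspo genes. Rspo2 had too few counts in Winnie-Prolapse against Winnie, which leaves 24. A gene was called when the Benjamini-Hochberg adjusted p of edgeR's quasi-likelihood test was under 0.001 and the change at least 1.5-fold, and a wider rule used an adjusted p under 0.05 at the same fold. Fold changes below are log2 values ± SE. Both Winnie groups were set against the same 8 C57BL/6 libraries, so those comparisons are not independent of each other.

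Winnie against C57BL/6 asks how the genes stand in colitis at matched age. By edgeR no gene of the set was called, where 0.0925% of 17289 genes tested were, and DESeq2 called 0 as well, beside 6.32% of the 19919 genes to which it gave an adjusted p. By the wider rule Wnt4 was higher (7.42% of all genes tested were) and Dkk2, Fzd2, Sfrp4 and Wnt8b were lower (8.53%), 5 of 25 where 15.9% of all genes tested passed. At an unadjusted p under 0.05 there were 14 of 25, against 39.9% of all genes tested, and no gene of the set had groups without overlap (1.64%). The median log2 fold change of the 25 was -0.53, beside -0.01 over all genes tested, and 18 of the 25 values were below 0 (50.8%). Of the 25, Dkk2, Rspo2, Fzd3 and Wnt11 met the low-count filter (0.338 CPM in 7 libraries) in C57BL/6 but not in Winnie. That favours a lower Winnie value, and their changes were -2.28, -0.92, -0.82 and -0.68. They enter the counts and the median given here.

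Winnie-Prolapse against C57BL/6 sets the most inflamed tissue against healthy colon. Fzd1 and Wnt5a were called higher (9.84% of 17397 genes tested were) and Wnt8b, Fzd2, Fzd8, Sfrp5 and Rspo2 lower (8.47%), 7 of 25 where 18.3% of all genes were called. Those 7 are 2 ligands, 3 receptors, 1 Sfrp gene and 1 R-spondin, Rspo2. Rspo2, Wnt8b and Dkk2, a gene of the wider rule, met the low-count filter in C57BL/6 but not in Winnie-Prolapse. That favours a lower Winnie-Prolapse value, and the 3 enter the counts and medians given here. The wider rule added Wnt4, Sfrp4 and Sfrp2 as higher (5 in all, beside 16.7%) and Rspo3 and Dkk2 as lower (7 in all, beside 17.7%), 12 of 25 where 34.4% of all genes passed, and 15 of 25 had an unadjusted p under 0.05 (58.5%). Groups did not overlap for Fzd1 on the higher side (6.5%) and for Fzd8 and, narrowly, Fzd5 on the lower side (9.45%), 3 of 25 beside 16% of all genes. The median over the 25 was -0.30, beside -0.01 over all genes tested, and by family it was -0.10 for Wnt, 0.13 for Fzd, 0.78 for Sfrp, -1.20 for Dkk and -1.04 for Rspo genes.

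Winnie-Prolapse against Winnie holds the mutation constant. By edgeR no gene of the set was called, and 0% of the 17041 genes tested were, while DESeq2 called 5 of 33 genes of the set, beside 3.48% of 19485 genes, and 2 of the 5, Wnt7b and Fzd10, had too few counts for the edgeR fit. By the wider rule Fzd1, Sfrp4, Sfrp1, Wnt11 and Wnt5a were higher (4.27% of all genes tested were) and Wnt8b was lower (2.72%), 6 of 24 beside 6.99%, and 10 of 24 had an unadjusted p under 0.05, against 27.8%. Fzd1 alone of the set had groups that did not overlap (0.411% of all genes tested on the higher side, 0.962% on either). The median log2 fold change of the 24 was 0.36, beside 0.01 over all genes tested. Wnt11 and Fzd3 met the low-count filter in Winnie-Prolapse but not in Winnie, and Wnt8b in Winnie but not in Winnie-Prolapse. For these genes the filter favours the direction seen, and they enter the counts and the median given here.

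**Figure D2:**
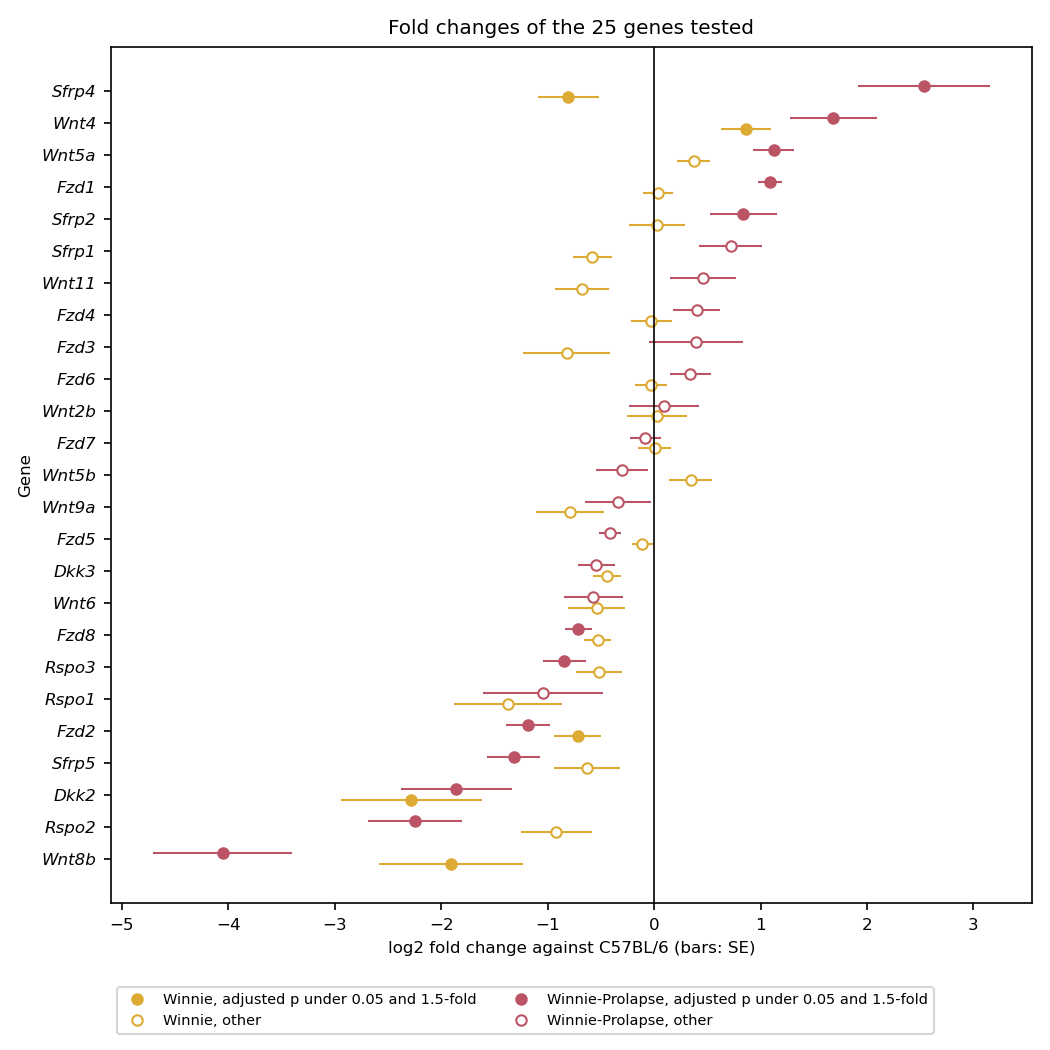
Log2 fold change with SE (edgeR) of the 25 genes tested, against C57BL/6 for Winnie and for Winnie-Prolapse, ordered by the Winnie-Prolapse value, with filled points for an adjusted p under 0.05 and at least 1.5-fold. The fold changes run from -4.05 for Wnt8b to 2.54 for Sfrp4, both in Winnie-Prolapse.

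Among the ligands, Wnt5a acts mainly outside the beta-catenin branch and is made by stromal cells of the gut. Its level ran from 9.17 to 15.7 CPM (median 10.4) in C57BL/6, 8.76 to 20.0 CPM (median 12.9) in Winnie and 15.5 to 39.0 CPM (median 17.4) in Winnie-Prolapse. The C57BL/6 maximum was replicate 7, and 6 of 7 Winnie-Prolapse libraries lay above it, with replicates 2 and 4 far above the rest at 37.5 and 39.0 CPM. The change was 1.12 ± 0.19 in Winnie-Prolapse against C57BL/6 (adjusted p = 0.000208), 0.76 ± 0.21 against Winnie (0.0423) and 0.37 ± 0.16 in Winnie (0.0871). Those 2 libraries also had the highest sums of their group for skeletal muscle, fibroblast (2320 and 2382 CPM) and subepithelial mesenchyme genes (293.3 and 458.4 CPM), and the part of fibroblast and mesenchyme genes in the Wnt5a values was not tested. Without the 3 libraries carrying skeletal muscle genes the change against C57BL/6 was 0.78 (0.000912). With the 5 libraries carrying squamous genes left out, it was 0.77 (0.0172) on the 2 that remain.

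Wnt8b, a ligand best known from the developing forebrain, had the lowest fold change of the set. C57BL/6 libraries other than replicate 7 ran from 5.43 to 19.1 CPM, and replicate 7 had 1 count (0.0362 CPM). Winnie libraries ran from 0.545 to 7.15 CPM (median 1.67) and Winnie-Prolapse libraries from 0.322 to 0.956 CPM (median 0.533, 8 to 26 counts). Apart from C57BL/6 replicate 7, each Winnie-Prolapse library lay below each C57BL/6 library, and replicates 1 and 3, without squamous or skeletal muscle transcripts, were at 0.533 and 0.514 CPM. The low-count filter (0.342 CPM in 7 libraries) was reached in 7 of 8 C57BL/6 and 5 of 7 Winnie-Prolapse libraries, so C57BL/6 alone met it. Between the Winnie groups (0.328 CPM in 7 libraries) it was reached in 7 of 7 Winnie and 5 of 7 Winnie-Prolapse libraries. In both comparisons the filter favours a lower Winnie-Prolapse value. The change was -4.05 ± 0.66 in Winnie-Prolapse (adjusted p = 0.000124), -1.91 ± 0.67 in Winnie (0.0476) and -2.15 ± 0.50 between the Winnie groups (0.0231). Without C57BL/6 replicate 7 the first 2 were -4.24 (1.11e-07) and -2.10 (0.00642), and without the 5 squamous libraries the first was -4.03 (0.0501).

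Wnt4, a ligand of stromal and epithelial cells, was the one gene of the set that was higher in Winnie by the wider rule. Levels were 1.96 to 6.13 CPM (median 3.75) in C57BL/6, 3.74 to 9.87 CPM (median 6.90) in Winnie and 4.05 to 30.1 CPM (median 5.54) in Winnie-Prolapse. In Winnie, 5 of 7 libraries lay above all of C57BL/6, while in Winnie-Prolapse only replicates 2, 4 and 7 did, at 30.1, 24.7 and 13.8 CPM. These 3 libraries had the 3 highest squamous sums. The change was 0.86 ± 0.23 in Winnie (adjusted p = 0.0153) and 1.68 ± 0.41 in Winnie-Prolapse (0.00299), and 0.62 (0.185) without the squamous libraries.

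Wnt11, which acts in cell movement, was low throughout, at 0.393 to 1.05 CPM in C57BL/6, 0.201 to 0.540 CPM in Winnie and 0.414 to 1.49 CPM in Winnie-Prolapse. It was higher in Winnie-Prolapse than in Winnie by 1.14 ± 0.32 (adjusted p = 0.0420), with 5 of 7 libraries above all of Winnie, and by 0.57 (0.862) without the squamous libraries. The low-count filter was reached in 7 of 7 Winnie-Prolapse and 5 of 7 Winnie libraries, which favours a higher Winnie-Prolapse value. The remaining tested ligands, Wnt2b, Wnt5b, Wnt6 and Wnt9a, did not pass either rule in any comparison. Wnt2b, a stromal ligand that can support crypts, had medians of 2.46, 2.59 and 2.88 CPM over the groups, and Wnt5b, Wnt6 and Wnt9a lay between 0.363 and 2.56 CPM in every library.

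Among the receptors, Fzd1 separated Winnie-Prolapse from both other groups. Its level was 22.5 to 41.3 CPM (median 33.9) in C57BL/6, 24.2 to 49.8 CPM (median 30.8) in Winnie and 51.7 to 79.4 CPM (median 67.9) in Winnie-Prolapse. Each of the 7 Winnie-Prolapse libraries lay above the highest C57BL/6 and the highest Winnie library, and the C57BL/6 and Winnie ranges overlapped. The change was 1.09 ± 0.12 against C57BL/6 (adjusted p = 3.77e-06), the smallest adjusted p of the set, 1.05 ± 0.14 against Winnie (0.00787) and 0.04 ± 0.14 in Winnie (0.866). Winnie-Prolapse replicates 1 and 3, which lack squamous transcripts, had 66.0 and 51.7 CPM, and a fit on these 2 gave 0.96 (0.00337) against C57BL/6 and 0.90 (0.645) against Winnie, where no gene at all was called.

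Fzd2 and Fzd8 went the other way. Fzd2, at 7.52 to 19.5 CPM (median 12.9) in C57BL/6, was at 5.30 to 13.2 CPM (median 6.31) in Winnie and 3.22 to 7.66 CPM (median 5.22) in Winnie-Prolapse. Below the lowest C57BL/6 library lay 5 of 7 Winnie and 6 of 7 Winnie-Prolapse libraries, and the changes were -0.72 ± 0.22 (adjusted p = 0.0274) and -1.18 ± 0.21 (0.000262). Fzd8 ran from 10.1 to 16.0 CPM (median 11.8) in C57BL/6, 6.59 to 10.9 CPM (median 7.47) in Winnie and 4.81 to 8.76 CPM (median 7.57) in Winnie-Prolapse. All 7 Winnie-Prolapse libraries lay below C57BL/6, whereas the Winnie range overlapped it, and the changes were -0.71 ± 0.13 (0.000304) and -0.53 ± 0.12 (0.0088, under 1.5-fold). Without the squamous libraries they were -0.99 (0.0708) for Fzd2 and -0.75 (0.0362) for Fzd8 in Winnie-Prolapse.

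Smooth muscle and enteric neuron genes were lower in the same direction as Fzd2 and Fzd8. In Winnie-Prolapse 10 of 10 smooth muscle genes and 8 of 10 neuron and glia genes were called lower, and in Winnie 8 of 10 and 10 of 10 were lower by the wider rule. Their part in the values of any Wnt gene was not tested.

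Fzd5, the receptor at the highest level per length, ran from 123 to 179 CPM (median 145) in C57BL/6, 117 to 144 CPM (median 135) in Winnie and 73.4 to 122 CPM (median 113) in Winnie-Prolapse. Each Winnie-Prolapse library lay below each C57BL/6 library, but narrowly, with the highest at 122.4 CPM and the lowest C57BL/6 library at 122.8 CPM. These CPM are without the scaling used in the test, and whether the groups separate after it was not tested. The change against C57BL/6 of -0.41 ± 0.11 (adjusted p = 0.0039) stayed under 1.5-fold. It was -0.30 ± 0.07 (0.0229) between the Winnie groups and -0.11 (0.415) in Winnie. Fzd3, Fzd4, Fzd6 and Fzd7 passed neither rule in any comparison. Fzd7, a receptor of intestinal stem cells, had medians of 24.7, 23.7 and 18.1 CPM, Fzd6 of 17.3, 15.2 and 17.9 CPM, Fzd4 of 4.21, 4.15 and 5.49 CPM and Fzd3 of 0.673, 0.345 and 0.850 CPM in C57BL/6, Winnie and Winnie-Prolapse.

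**Figure D3:**
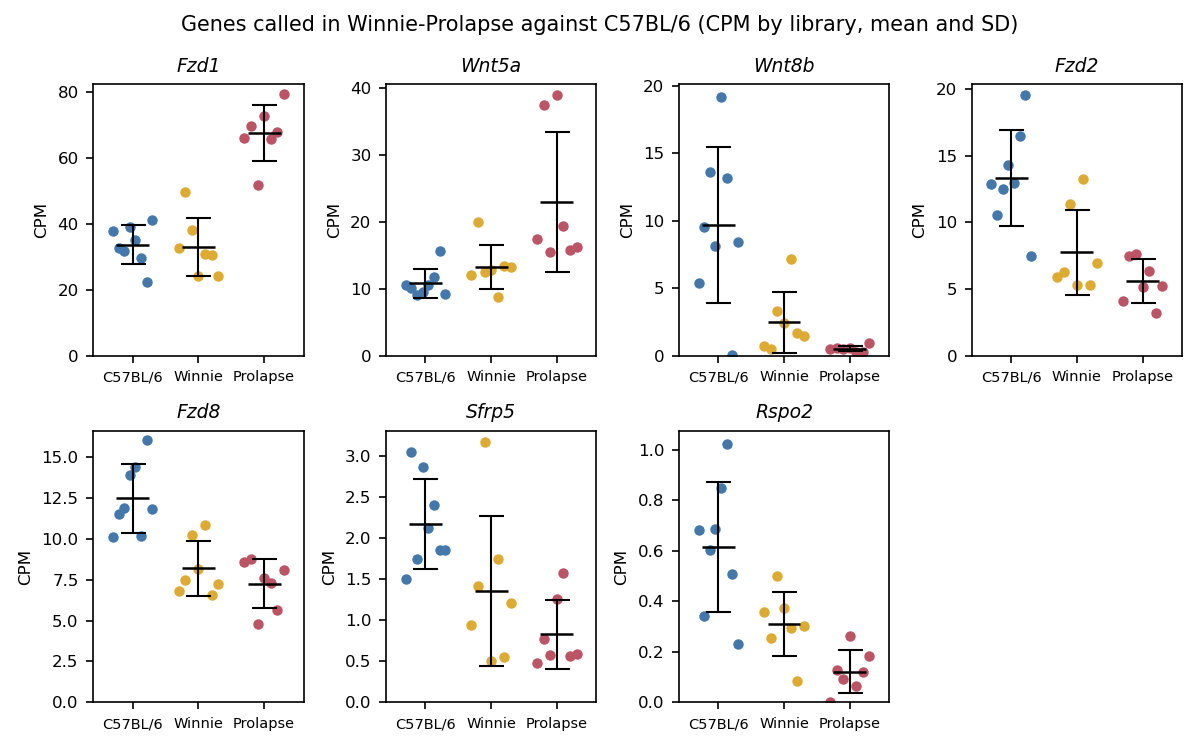
CPM of the 7 genes called in Winnie-Prolapse against C57BL/6, with 1 point per library and bars for the mean and SD of C57BL/6 (n = 8), Winnie (n = 7) and Winnie-Prolapse (labelled Prolapse, n = 7). All Fzd1 points of Winnie-Prolapse lie above the other groups, and C57BL/6 replicate 7 is the single low Wnt8b point of its group.

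The Sfrp family split. Sfrp5, a Wnt-binding decoy, was at 1.5 to 3.04 CPM (median 1.99) in C57BL/6, 0.507 to 3.16 CPM (median 1.21) in Winnie and 0.473 to 1.57 CPM (median 0.589) in Winnie-Prolapse. Of the Winnie-Prolapse libraries 6 of 7 lay below all of C57BL/6, the exception being replicate 5, and Winnie spanned both ranges. The change was -1.32 ± 0.25 in Winnie-Prolapse (adjusted p = 0.000428) and -0.63 in Winnie (0.138). It was -1.86 (0.00328) without the libraries with squamous transcripts and -1.77 (0.000117) without those with skeletal muscle transcripts. With each library left out in turn, the call held in 9 of 15 fits.

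Sfrp4, another decoy, had values on both sides. It ran from 1.39 to 2.97 CPM (median 2.04) in C57BL/6, 0.374 to 2.08 CPM (median 1.05) in Winnie and 1.01 to 34.7 CPM (median 5.37) in Winnie-Prolapse. In Winnie 5 of 7 libraries lay below all of C57BL/6, with a change of -0.80 ± 0.28 (adjusted p = 0.0476). In Winnie-Prolapse the 5 squamous libraries had 5.37, 3.70, 24.0, 9.99 and 34.7 CPM, all above C57BL/6, and replicates 1 and 3 had 1.01 and 1.36 CPM, both below it. The change was 2.54 ± 0.62 over the 7 (0.00309) and 3.35 ± 0.74 against Winnie (0.0205), but -0.65 (0.157) and 0.13 (0.967) on the 2 libraries without squamous transcripts, so the direction against C57BL/6 turned with them. Sfrp4 was highest in the 3 females of that group.

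Sfrp1, the Sfrp gene with the highest level per length, ran from 24.3 to 36.2 CPM (median 28.0) in C57BL/6, 10.9 to 29.8 CPM (median 16.2) in Winnie and 14.9 to 95.1 CPM (median 36.4) in Winnie-Prolapse. Below all of C57BL/6 lay 5 of 7 Winnie libraries (-0.58 ± 0.18, adjusted p = 0.03, under 1.5-fold), and 4 of 7 Winnie-Prolapse libraries, replicates 2, 4, 5 and 6, lay above it. The change against Winnie was 1.31 ± 0.36 (0.0366), and -0.0014 (0.999) without the squamous libraries. Sfrp2 was at 2.93 to 8.81 CPM in C57BL/6, 3.08 to 10.2 CPM in Winnie and 4.88 to 18.7 CPM in Winnie-Prolapse, with a change of 0.84 ± 0.31 in the last (0.0339), and 0.29 (0.642) without the squamous libraries.

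**Figure D4:**
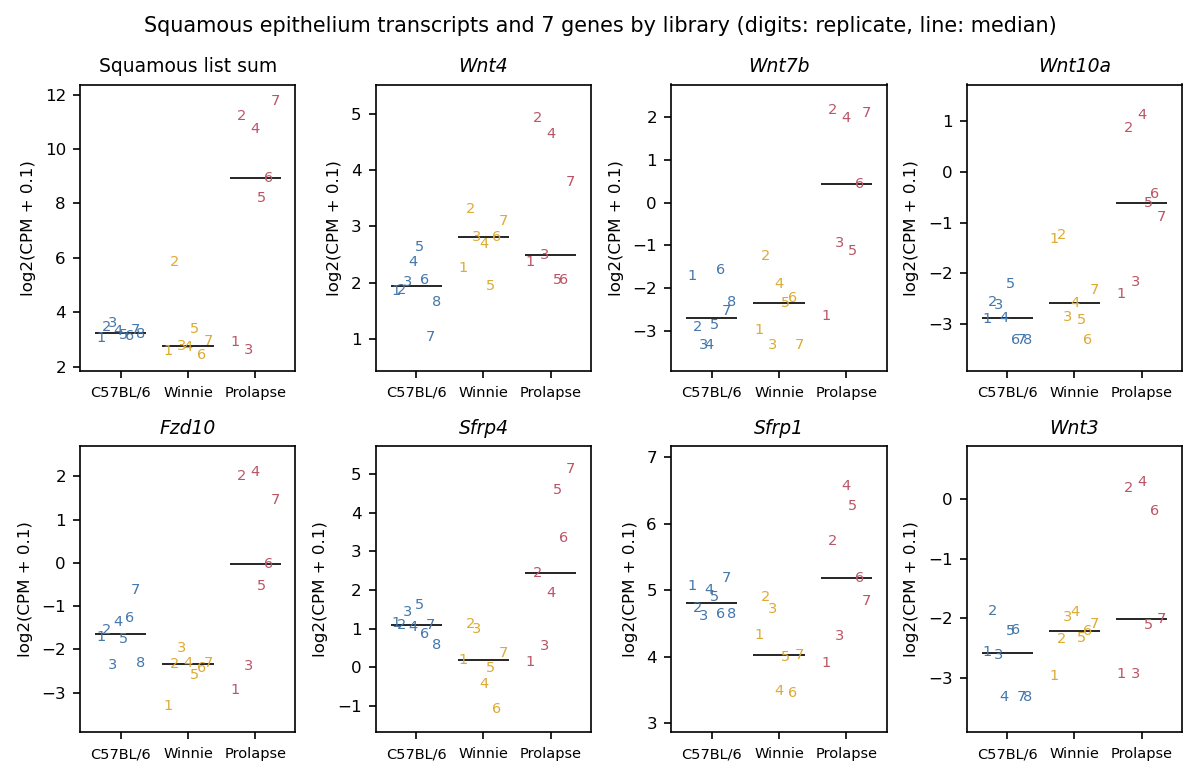
Summed level of squamous epithelium genes and level of 7 Wnt pathway genes, as log2(CPM + 0.1), where each digit is the replicate number of a library, each line a group median and Prolapse the Winnie-Prolapse group. Winnie-Prolapse replicates 1 and 3 sit with the C57BL/6 and Winnie libraries in squamous transcripts, at 7.43 and 5.96 CPM, and have the lowest Sfrp4 and Sfrp1 of their group.

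Of the Dkk genes, Dkk2 was lower in both Winnie groups. It ran from 0.944 to 8.98 CPM (median 1.45) in C57BL/6, where replicate 7 stood alone and the next library was at 1.77 CPM, from 0 to 1.54 CPM (median 0.335) in Winnie and from 0.207 to 1.29 CPM (median 0.575) in Winnie-Prolapse. In each Winnie group 6 of 7 libraries lay below all of C57BL/6. C57BL/6, where Dkk2 is high, was the group that met the low-count filter by itself, with 8 of 8 libraries at its level against 3 of 7 in Winnie and 6 of 7 in Winnie-Prolapse, which favours a lower value in the other group. The change was -2.28 ± 0.66 in Winnie (adjusted p = 0.0218) and -1.86 ± 0.52 in Winnie-Prolapse (0.00732), and without C57BL/6 replicate 7 it was -1.54 (0.0348) and -1.1 (0.00506). Dkk3 was at 25.6 to 47.2 CPM in C57BL/6, 22 to 31.2 CPM in Winnie and 14.1 to 33.6 CPM in Winnie-Prolapse, with changes of -0.44 ± 0.13 (0.0215) and -0.54 ± 0.18 (0.0173) that stayed under 1.5-fold. Dkk1 and Dkk4 never exceeded 2 counts in a library.

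The R-spondins that were tested all had negative fold changes against C57BL/6, a direction that the low-count filter favours for Rspo2. Rspo2 was at the edge of detection, with 7 to 26 counts (0.232 to 1.02 CPM) in C57BL/6, 3 to 13 counts (0.0863 to 0.501 CPM) in Winnie and 0 to 8 counts (0 to 0.264 CPM) in Winnie-Prolapse. It met the low-count filter, 0.342 CPM in 7 libraries, through C57BL/6 alone (7 of 8 libraries, and 0 of 7 in Winnie-Prolapse), and a gene that passes in this way has to be lower in Winnie-Prolapse. Only replicate 4 of Winnie-Prolapse reached the C57BL/6 range, and the change was -2.25 ± 0.44 (adjusted p = 0.000627), and -3.48 (0.0168) without the squamous libraries. In Winnie the change was -0.92 ± 0.33 (0.0518), and the filter there (0.338 CPM in 7 libraries) was reached in 7 of 8 C57BL/6 and 3 of 7 Winnie libraries. The Winnie-Prolapse call held in 4 of the 8 fits with a library left out in which Rspo2 could be tested.

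Rspo3, the R-spondin of the stroma next to the crypt base, ran from 4.58 to 11.3 CPM (median 8.50) in C57BL/6, 3.60 to 8.76 CPM (median 4.77) in Winnie and 2.22 to 5.49 CPM (median 4.56) in Winnie-Prolapse. The lowest C57BL/6 library lay above 4 of 7 Winnie-Prolapse libraries, and the change was -0.85 ± 0.20 (adjusted p = 0.00254), or -1.21 (0.0369) without the squamous libraries. In Winnie it was -0.52 (0.0847). Rspo1 had medians of 2.56, 0.863 and 0.808 CPM with wide ranges in each group, and changes of -1.37 (0.0553) in Winnie and -1.04 ± 0.56 (0.132) in Winnie-Prolapse.

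**Figure D5:**
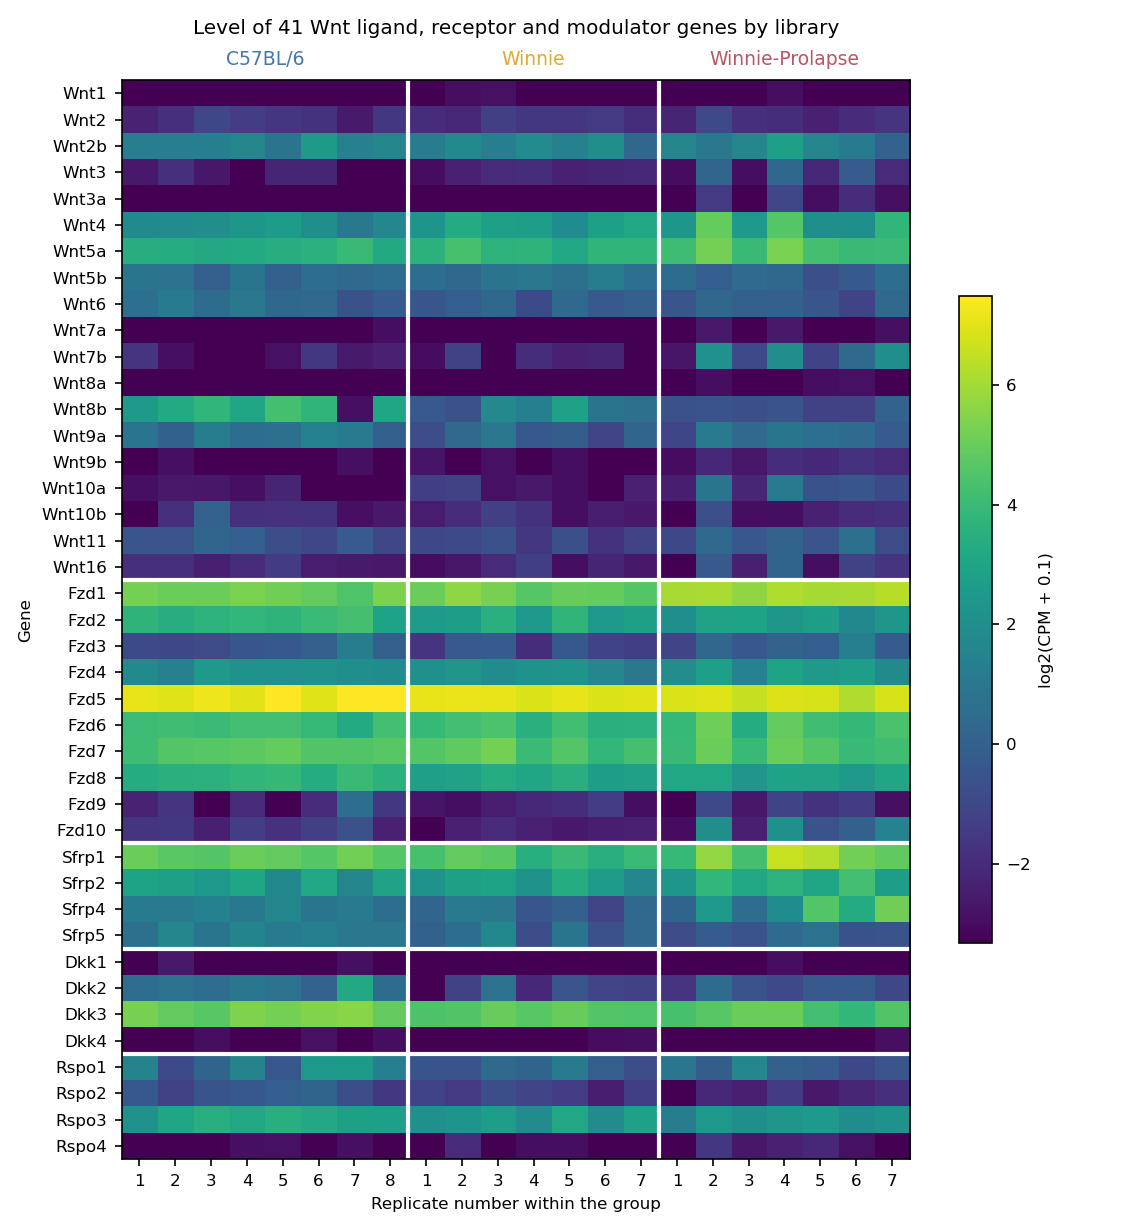
Heat map of the level, as log2(CPM + 0.1), of 41 genes (rows, by family) in 22 libraries (columns, by group). In Winnie-Prolapse, Wnt7b and Fzd10 are highest in replicates 2, 4 and 7, and Wnt10a and Wnt3 in replicates 2, 4 and 6.

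Of the 42 rows, 17 did not pass the filter on low counts in any comparison. They are the second Fzd6 row, Wnt1, Wnt2, Wnt3, Wnt3a, Wnt7a, Wnt7b, Wnt8a, Wnt9b, Wnt10a, Wnt10b, Wnt16, Fzd9, Fzd10, Dkk1, Dkk4 and Rspo4. Some of these stood above the rest in single Winnie-Prolapse libraries. Wnt7b, a ligand of stratified and airway epithelia, was at 0.0592, 4.33, 0.424, 3.80, 0.36, 1.25 and 4.12 CPM in replicates 1 to 7, against at most 0.236 CPM in C57BL/6 and 0.320 CPM in Winnie. The receptor Fzd10 was at 0.0296, 3.94, 0.0908, 4.20, 0.588, 0.886 and 2.65 CPM, against at most 0.543 and 0.154 CPM. Both were highest in replicates 2, 4 and 7, the libraries with the highest squamous sums, and under the limit of 3 counts in replicate 1.

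Wnt10a, a ligand of skin appendages, followed with 0.0888, 1.71, 0.121, 2.08, 0.556, 0.645 and 0.441 CPM, against at most 0.116 CPM in C57BL/6 and 0.320 CPM in Winnie. Wnt3 reached 1.12 CPM, against at most 0.171 and 0.169 CPM, and Wnt16 reached 1.02 CPM, against at most 0.270 and 0.304 CPM. Wnt3a had 0 counts in all 15 C57BL/6 and Winnie libraries, which allows up to 0.118 CPM, and 0 to 0.397 CPM in Winnie-Prolapse. The part of squamous or skeletal muscle transcripts in these values was not tested.

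When the filter was dropped, 3 of the low genes met the call rule as higher in Winnie-Prolapse against C57BL/6, where 5 of 41 rows of the set and 6.33% of 29816 genes did, Wnt10a at 4.21 ± 0.72 (adjusted p = 0.000264), Wnt7b at 4.56 ± 0.83 (0.000461) and Wnt9b at 3.34 ± 0.64 (0.000646). Wnt9b rested on 1 to 5 counts per Winnie-Prolapse library. Wnt10b, Fzd9, Wnt2 and Rspo4 did not exceed 0.952, 1.38, 0.420 and 0.226 CPM in any library, and Wnt1, Wnt7a and Wnt8a stayed at 2 counts or fewer.

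No gene of the set differed by sex in its change at an adjusted p under 0.05 in any of the 3 comparisons (edgeR), and 4, 4 and 3 had an unadjusted p under 0.05 in Winnie and Winnie-Prolapse against C57BL/6 and in Winnie-Prolapse against Winnie. The smallest unadjusted p-values were those of Sfrp4, with a male minus female difference of -3.25 ± 0.65 in Winnie-Prolapse against C57BL/6 (unadjusted p = 0.000181, adjusted p = 0.9995) and -4.14 ± 0.76 against Winnie (0.000106 and 0.2695). Fitted in males alone the change of Sfrp4 against C57BL/6 was 0.34 (adjusted p = 0.590), and in females alone 3.62 (0.0014). Both libraries without squamous transcripts came from males, so sex and these transcripts are mixed here. Fzd1 was higher in both, by 0.90 (0.00104) in males and 1.31 (0.0044) in females.

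The other genes of the pathway were taken from 6 lists, and their counts in Winnie-Prolapse stand beside 9.84% of all genes tested called higher and 8.47% lower against C57BL/6, or 16.7% and 17.7% by the wider rule. In the reception step, Lrp5 alone of 12 tested co-receptor and receptor turnover genes was called in Winnie-Prolapse, at 87.8 ± 30.9 CPM (SD, n = 7) against 50.9 ± 5.99 CPM (SD, n = 8) in C57BL/6, a change of 0.85 ± 0.16 (adjusted p = 0.000452), and 0.53 (0.0434) without the squamous libraries. The wider rule gave 2 higher and 2 lower. None of 3 tested genes of Wnt secretion and deacylation, 6 other secreted modulators and 19 cytoplasmic and nuclear pathway genes was called, and by the wider rule 0, 1 and 1 were higher and 1, 0 and 0 lower. The medians of these lists, in the same order, were -0.55, 0.60 and 0.11, beside -0.36 for the co-receptor list and -0.01 over all genes tested.

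Of 17 tested beta-catenin target and feedback genes, 3 were called higher and 2 lower in Winnie-Prolapse, and the median was -0.31. The adhesion receptor Cd44 was higher by 1.94 ± 0.34 (adjusted p = 0.000249), the crypt position receptor Ephb2 by 1.06 ± 0.20 (0.00051) and the cell cycle gene Ccnd1 by 1.12 ± 0.22 (0.000519). The stem cell factor Ascl2, at 2.45 ± 0.748 CPM against 7.35 ± 2.22 CPM (SD, n = 7 and 8), changed by -1.5 ± 0.22 (6.21e-05), and Nkd2, an inhibitor of Dishevelled, by -1.64 ± 0.32 (0.000548), both without overlap. On the 2 libraries without squamous transcripts Cd44 was at 0.87 (0.0563), Ephb2 at 0.47 (0.177), Ccnd1 at 0.69 (0.0756), Ascl2 at -1.13 (0.0425) and Nkd2 at -1.27 (0.0989), so none met the call rule there. The summed level of the list was 858.4, 995, 726.4, 571 and 459.7 CPM in Winnie-Prolapse replicates 2, 4, 5, 6 and 7, the squamous libraries, 553.7 and 391.3 CPM in replicates 1 and 3 and 427.5 to 496.8 CPM in C57BL/6. Replicates 2, 4, 5, 6 and 1 lay above the C57BL/6 range, replicate 7 inside it and replicate 3 below it. Cd44 and Ccnd1 are also expressed outside this pathway, and leukocyte genes, of which 6 of 10 were called higher, moved in the same direction, and their part in these values was not tested. Axin2, chosen after its values were seen because it is a widely used target, changed by -0.43 ± 0.14 (0.0174, under 1.5-fold).

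Celsr1, a cadherin of cell polarity, was the 1 of 12 tested planar polarity genes called, at 1.10 ± 0.22 (adjusted p = 0.000615), where the list's median was -0.04. It was 0.48 (0.151) without the squamous libraries, and Winnie-Prolapse replicates 1 and 3 had 76.0 and 32.9 CPM against 35.9 to 50.5 CPM in C57BL/6. In Winnie none of the 6 lists had a called gene. By the wider rule, which 7.42% of all genes tested passed as higher and 8.53% as lower there, 4 of 17 target genes were higher and 2 lower, 2 of 5 other secreted modulators lower, 2 of 19 cytoplasmic genes higher and 1 of 12 planar polarity genes in each direction. Against Winnie, where 4.27% of all genes passed as higher and 2.72% as lower, Winnie-Prolapse had 2 of 17 target genes higher and 2 lower, 2 of 6 other secreted modulators and 1 of 12 planar polarity genes higher, and 1 of 19 cytoplasmic genes lower. A few genes, such as Tcf7 and Ptk7, stand on 2 of the lists and are counted in each.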

How the data were processed

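Per the labels, poly(A) RNA of whole distal colon was made into stranded libraries, and the authors ran RNAsik with featureCounts on GRCm38. The submitters' processing notes also name STAR and limma. The deposited values are raw read counts per gene for 22 libraries, and all 7 Winnie libraries of the labels were used, although the study's methods give a smaller number of Winnie colons. Annotation release, strand setting and the handling of shared reads are not given in the sources used here.

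The test was the quasi-likelihood F test of edgeR 4.0.16 under R 4.3.3 (TMM, filterByExpr, package defaults) on the 2 groups compared, with Benjamini-Hochberg adjustment over all genes tested, as the study set its limits (adjusted p under 0.001, 1.5-fold). CPM is the count over the library total, and lengths and positions are from GENCODE M21, which held 41 of the 42 rows. Genes are named if past an adjusted p of 0.05 and 1.5-fold, and otherwise by range, and from pathway lists at most 3 called genes a direction. The genes, lists and tests were chosen with earlier results of these data known. On simulated data the test recovered 91.5%, 87.5% and 81% of 200 genes changed 4-fold in Winnie and in Winnie-Prolapse against C57BL/6 and in Winnie-Prolapse against Winnie, with 0 false calls. The 200 genes had means above 1 CPM, and each gene had 1 common mean over the libraries before the change. These shares do not describe smaller changes, genes at lower levels or groups in which some libraries hold squamous or skeletal muscle transcripts. Alternatives used DESeq2 1.42.0, limma-voom (limma 3.58.1), other scaling, filters, thresholds and designs, 1 sex alone and each library left out. Leaving out the libraries with squamous (summed CPM over 100) or skeletal muscle transcripts (over 200) was chosen after seeing the data.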

Additional observations from a re-analysis of the deposited data

Results flagged for a closer look

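In 14 of 96 checks of a gene within a group (14.6%), the highest or lowest library stood apart from the other libraries of its group by Dixon's test. The nominal 5% of that test holds for independent, normal values. CPM values need not be normal and the genes share libraries, so no excess over 5% is read from this. C57BL/6 replicate 7 accounted for 5 of the 14: it was highest in Wnt5a (15.7 CPM, next 11.8), Fzd3 (2.32, next 0.865), Dkk2 (8.98, next 1.77) and Fzd9 (1.38, next 0.232) and lowest in Fzd6 (9.74, next 15.1). It also had the highest smooth muscle, enteric neuron, adipocyte, epithelium, fibroblast, subepithelial mesenchyme and skeletal muscle sums of C57BL/6 and the lowest leukocyte and endothelium sums, and the part of these in its values was not tested.

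In the other C57BL/6 libraries, Wnt10b stood apart in replicate 3 (0.952 CPM, next 0.197) and Wnt2b in replicate 6 (5.74, next 3.01). In Winnie, Wnt5a was high in replicate 2 (20.0 CPM, next 13.5), Wnt8b in replicate 5 (7.15, next 3.32) and Dkk2 in replicate 3 (1.54, next 0.623). In Winnie-Prolapse, Fzd3 was high in replicate 6 (2.42 CPM, next 1.10), Wnt10b in replicate 2 (0.517, next 0.184), Wnt8b in replicate 7 (0.956, next 0.595) and Wnt2b in replicate 4 (6.74, next 3.09).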

How the results depend on the processing

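In Winnie against C57BL/6, 0 genes of the set were called in edgeR and in every alternative (0 to 0 with each library left out), except that an adjusted p under 0.05 gave 5 (15.9% of all genes). In Winnie-Prolapse against C57BL/6, where 7 were called, DESeq2 called 15 (beside 23% of all genes with an adjusted p, and 4 of the 15, Wnt7b, Wnt9b, Wnt10a and Fzd10, had too few counts for the edgeR fit), males alone 1 (1.76% of all genes), females alone 0 (1.45%), an adjusted p under 0.05 gave 12 (34.4%), and leaving out the squamous libraries gave 0 (2 libraries remain, and 2.55% of all genes were called) and the skeletal muscle libraries 3 (9.25%). The other alternatives gave 5 to 9 (10.6% to 20.9% of all genes), and leaving out each library 5 to 10. With each library left out, Fzd1, Wnt5a, Fzd2, Fzd8 and Wnt8b were called in 15 of 15 fits, Sfrp5 in 9 (not without C57BL/6 replicates 4 or 6 or Winnie-Prolapse replicates 2, 3, 6 or 7, adjusted p up to 0.00132) and Rspo2 in 4 of the 8 in which it was tested (not without Winnie-Prolapse replicates 2, 3, 5 or 6, adjusted p up to 0.00202). In Winnie-Prolapse against Winnie, DESeq2 called 5 (beside 3.48%, and 2 of the 5, Wnt7b and Fzd10, had too few counts for edgeR), a fit of all 3 groups 1 (Fzd1, adjusted p = 0.000566, beside 0.236%) and an adjusted p under 0.05 gave 6 (6.99%), where edgeR on the 2 groups called 0 (0 to 0 with each library left out). Without the squamous libraries Sfrp4 changed sign to -0.649 against C57BL/6 and Sfrp1 to -0.0014 against Winnie. The sex by group difference was called for 0 genes in each comparison, with 0 to 0, 0 to 0 and 0 to 1 when each library was left out, the 1 being Sfrp4 in Winnie-Prolapse against Winnie without Winnie-Prolapse replicate 4 (-4.28 ± 0.81, adjusted p = 0.0496). By the wider rule, Wnt4 and Dkk2 passed in Winnie with each library left out, Fzd2 in 10 of 15 fits, Sfrp4 in 3 and Wnt8b in 2. In Winnie-Prolapse against C57BL/6 Wnt4, Sfrp4, Rspo3 and Dkk2 passed it in 15 of 15 and Sfrp2 in 9, and against Winnie Fzd1, Sfrp4 and Wnt8b in 14 of 14 and Sfrp1, Wnt11 and Wnt5a in 4. No paired analysis was possible because replicate numbers were given in accession order and pair no animals.

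Values under about 10 counts in a library, which Rspo2 and the 17 untested rows held in many libraries, are limited by depth. Some of these rows stood well above that in single libraries, up to 134 counts for Wnt7b and 127 for Fzd10 in Winnie-Prolapse. How reads shared by related or overlapping genes were counted is not given in the sources used here. Age, prolapse and the squamous and skeletal muscle transcripts go together in the Winnie-Prolapse group, and 2 libraries without squamous transcripts are too few to separate them.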
